A study of Mus musculus with 18 samples.

Results

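The genes described here encode 6 enzymes of cholesterol synthesis, Hmgcs1, Idi1, Fdps, Sqle, Lss and Msmo1 (listed in older tables as Sc4mol), and the regulators Srebf2 and Insig1, which set the transcription of such enzymes. They were taken from the arrays as the probe sets annotated to 1 of these symbols alone, which gave 18 of 45101 probe sets and 8 of 18194 genes. Hmgcs1 had 5 probe sets, Lss 3, Msmo1, Idi1, Srebf2 and Fdps 2 each, and Sqle and Insig1 had 1. No member encodes a receptor for lipoprotein uptake, so uptake was read from a separate list of genes. RNA of the RPE/choroid (the retinal pigment epithelium and the vascular layer beneath it) had been hybridized to 18 Affymetrix mouse arrays. The animals were male C57BL6/J mice, 2 months old according to the labels and 6 to 8 weeks according to the methods, kept in equal periods of light and dark. Each received 1 intravitreal injection of 1 μL, which held balanced salt solution (BSS, the vehicle), 10 μg of dexamethasone (Dex) or 25 μg of triamcinolone acetonide (TAA) and was followed by collection 7 or 30 days later. This made 6 groups, and each was measured on 3 arrays. One mouse was used per array, picked within its group for the quality of its RNA.

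Both steroids were dissolved in the vehicle, but their doses differed, so that the steroid and its dose cannot be told apart. Likewise the day of collection cannot be told apart from the age of the animals and the time since injection. The methods state that most of the choroid probably stayed on the sclera in the dissection. The deposited log2 values had been shifted so that every probe set had a median of 0 across the 18 arrays. They therefore show differences between arrays and no level, neither genes nor probe sets can be ranked by abundance, and the tissue label could not be checked against the level of RPE markers. Medians per array ran from -0.044 to 0.020. No pair of arrays held identical values (highest r between arrays 0.74). In a dissected tissue, fewer cells of a type and less RNA per cell cannot be told apart.

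Cholesterol is built from acetyl groups in a chain of reactions. Hmgcs1 makes HMG-CoA, the precursor of mevalonate, Idi1 and Fdps turn mevalonate products into farnesyl diphosphate, Sqle and Lss convert squalene into lanosterol, and Msmo1 removes methyl groups from the sterols that follow. When sterols in the endoplasmic reticulum are low, the transcription factor encoded by Srebf2 is carried to the Golgi and cut free, and it activates the genes of these enzymes. Insig1 holds that factor in the endoplasmic reticulum when sterols are high. The RPE takes up lipid with the outer segments of photoreceptors and also exports lipid toward the choroid.

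The 250 bases before the transcription start of 3 members are shown because these genes carried the largest difference in the comparison with vehicle (Msmo1), the difference by day (Insig1) or the only match to the sterol regulatory element (Hmgcs1). They come from RefSeq on build GRCm38.p6 and are written 5′ to 3′ on the strand of the gene, for Hmgcs1 at chr13:119690101-119690350, plus strand, for Insig1 at chr5:28071162-28071411, plus strand, and for Msmo1 at chr8:64733579-64733828, minus strand. Capitals mark matches on either strand to the sterol regulatory element (TCACNCCAC), the E-box CACGTG, the NF-Y box CCAAT or the Sp1 box GGGCGG.
Hmgcs1: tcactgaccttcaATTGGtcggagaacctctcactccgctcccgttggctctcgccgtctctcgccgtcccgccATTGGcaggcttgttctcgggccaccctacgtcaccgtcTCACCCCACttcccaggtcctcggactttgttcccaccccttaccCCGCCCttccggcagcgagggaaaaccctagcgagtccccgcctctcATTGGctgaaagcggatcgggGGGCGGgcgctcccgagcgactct
Insig1: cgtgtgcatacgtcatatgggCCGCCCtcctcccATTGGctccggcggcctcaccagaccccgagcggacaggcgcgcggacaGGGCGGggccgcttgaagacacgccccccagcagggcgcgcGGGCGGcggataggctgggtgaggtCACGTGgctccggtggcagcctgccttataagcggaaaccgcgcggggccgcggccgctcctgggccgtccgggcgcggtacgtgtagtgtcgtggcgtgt
Msmo1: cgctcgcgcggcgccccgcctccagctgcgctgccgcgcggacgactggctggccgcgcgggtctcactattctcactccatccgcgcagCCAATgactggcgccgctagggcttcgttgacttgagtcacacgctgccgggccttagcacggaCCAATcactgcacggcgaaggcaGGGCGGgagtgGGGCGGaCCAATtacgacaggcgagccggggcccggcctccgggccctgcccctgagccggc

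Windows of this length were at hand for 6 members, Hmgcs1, Idi1, Insig1, Lss, Msmo1 and Srebf2. All 6 held the NF-Y box and all 6 the Sp1 box, against 33.8% and 32.7% of 32851 windows. Of 16 windows of other cholesterol synthesis enzymes, 12 held the NF-Y box, 12 the Sp1 box, 3 the E-box and 0 the letters TCACNCCAC. The letters TCACNCCAC, used here for the sterol regulatory element, were found in Hmgcs1 alone, from 137 to 129 bases before the start. They were found in 1.05% of all windows. Other forms of this element were not searched for, so the other members may hold one. The E-box was found in Insig1 alone, from 101 to 96 bases before the start, and in 6.02% of all windows. A match describes these letters and does not show that a factor binds there.

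Over all 7 comparisons made across the groups (each steroid with BSS and TAA with Dex at each time, and day 30 with day 7), 0 of the 18 probe sets differed at an adjusted p under 0.05 in limma. Of all 45101 probe sets, 0.00222% passed for TAA against BSS at day 7, 0.399% for the days and 0% in the other 5 comparisons. The F-test over the 6 groups likewise called 0 of them, where 0.0155% of all probe sets were called, and the member ranked first in it was Msmo1 (adjusted p = 0.864). When p was taken without adjustment at 0.05, between 0 and 3 members passed in each comparison. Of all probe sets, between 1.91% (TAA against Dex at day 30, with 3 members) and 13.8% (the days, with 1 member) passed. The values below are therefore given with their errors as measurements on single probe sets. Beside them stand counts at the study's thresholds, which asked for a fold change of at least 1.5 together with an unadjusted p no higher than 0.05. Standard errors (SE) of differences used the spread pooled over the 6 groups, and groups are called apart where all 3 arrays of one lay above all 3 of the other. With 3 arrays against 3, the smallest p of an exact two-sided permutation test is 0.1.

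Msmo1 stood apart after TAA at day 7. On probe set 1423078_a_at the centred log2 values were 0.95, 0.57 and 0.64 on the TAA arrays at day 7, -0.60, 0.11 and -0.06 on the BSS arrays and -0.03, 0.03 and 0.27 on the Dex arrays of that day. At day 30 they were 0.39, -0.14 and -0.18 after TAA, -0.10, -0.40 and 0.21 after BSS and -0.32, 0.36 and -0.44 after Dex. The 3 TAA arrays at day 7 were the highest of all 18, and the arrays of the other 5 groups overlapped. In group means the order was TAA at day 7 (0.72 ± 0.20, SD), Dex at day 7 (0.09 ± 0.16), TAA at day 30 (0.02 ± 0.32), BSS at day 30 (-0.09 ± 0.31), Dex at day 30 (-0.13 ± 0.43) and BSS at day 7 (-0.18 ± 0.37), with n = 3 in each, and from the second place on no neighbours were apart.

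TAA exceeded BSS at day 7 by 0.90 on Msmo1 1423078_a_at (SE 0.23, 95% interval 0.40 to 1.40, fold 1.87, adjusted p = 0.996). It was the 1 member probe set at the study's thresholds in that direction, which 0.126% of all probe sets reached. The difference between Dex and BSS at day 7 was 0.27 (SE 0.23, interval -0.23 to 0.77). TAA lay above Dex by 0.63 (SE 0.23, interval 0.13 to 1.13, adjusted p = 1). At day 30 the difference between TAA and BSS was 0.12 (SE 0.23, interval -0.38 to 0.61). The change in the TAA effect from day 7 to day 30 was -0.78 (SE 0.33, adjusted p = 0.994), at the study's thresholds like 0.701% of all probe sets. It rests on the same TAA arrays at day 7, and so does the difference between the days within TAA, -0.70 (SE 0.23, adjusted p = 0.888). The other Msmo1 probe set, 1459627_at, differed from BSS at day 7 by 0.18 after TAA (SE 0.11, interval -0.04 to 0.40). Over the 18 arrays it followed the first with r = 0.20. Without BSS day 7 replicate 1, the lowest array, the difference on 1423078_a_at was 0.69, and without BSS day 7 replicate 2 it was 1.05.

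**Figure D1:**
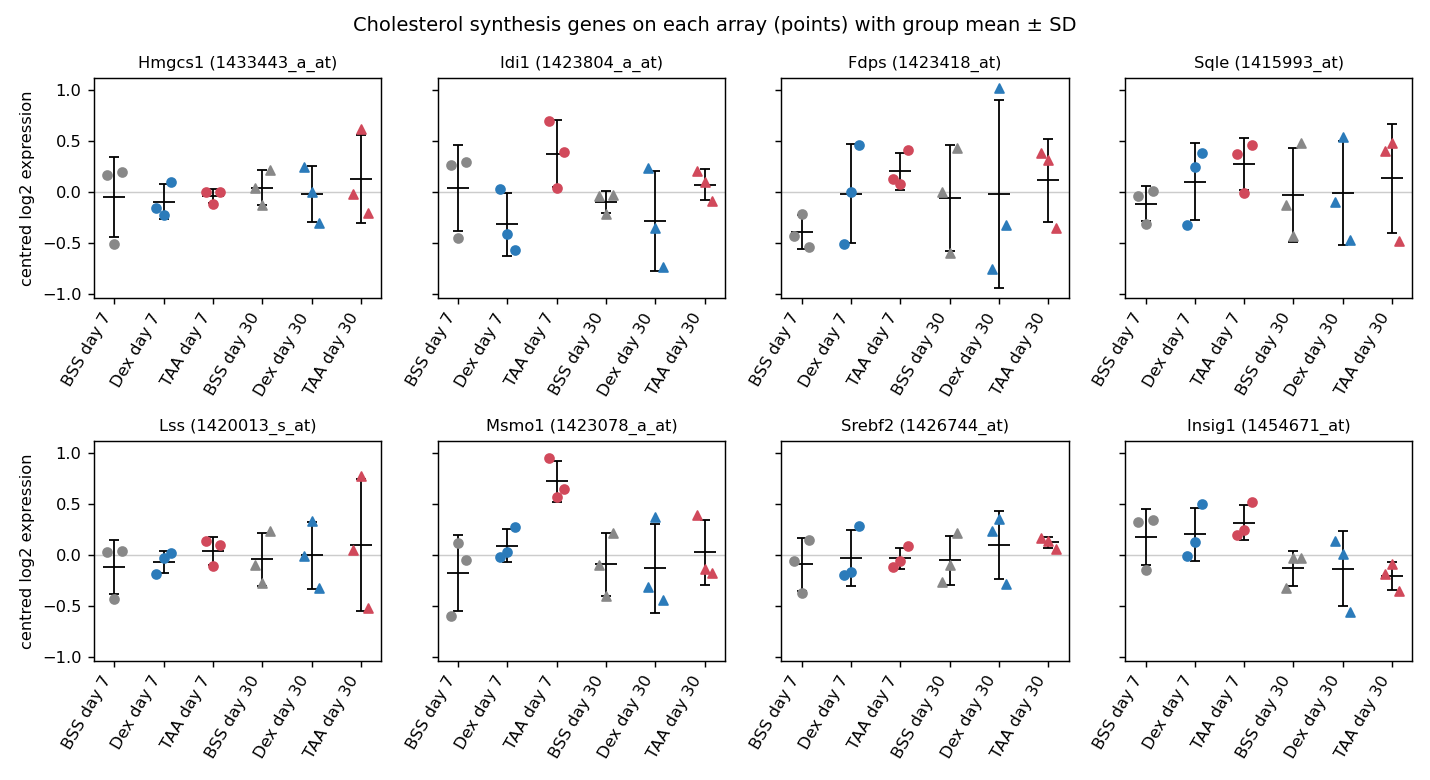
Centred log2 expression on each of the 18 arrays (points), against the 6 groups of treatment and day. Each of the 8 genes is shown by its probe set with the largest SD over the arrays. Black lines give the mean and SD of the 3 arrays of a group. Msmo1 after TAA at day 7 (0.72 ± 0.20) is set off from the other groups, and Insig1 lies lower at day 30. In Sqle and Fdps the Dex arrays at day 30 span most of the range of the 18 arrays.

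The enzymes before lanosterol differed less between TAA and BSS at day 7, and none of their probe sets reached the study's thresholds with the spread pooled over the 6 groups. Fdps, which makes farnesyl diphosphate, had values of 0.12, 0.08 and 0.41 on the TAA arrays of probe set 1423418_at, -0.43, -0.21 and -0.53 on the BSS arrays and -0.51, 0.00 and 0.46 on the Dex arrays. TAA and BSS were apart, while the Dex arrays overlapped both, and at day 30 the Dex arrays alone ran from -0.75 to 1.01. The difference between TAA and BSS at day 7 was 0.60 (SE 0.37, interval -0.20 to 1.39), and on the other Fdps probe set, 1438150_at, it was 0.06 (SE 0.09). With the methods' t-test, with only the arrays compared or with array weights, Fdps 1423418_at did stand at the study's thresholds (adjusted p = 0.865, 0.813 and 0.402). For Sqle, the squalene epoxidase, it was 0.39 (SE 0.30, interval -0.25 to 1.02). For Idi1, the isopentenyl diphosphate isomerase, it was 0.34 (SE 0.24) on 1423804_a_at and 0.37 (SE 0.23) on 1451122_at. The 5 probe sets of Hmgcs1 lay between 0.01 and 0.22 in this comparison. Those of Lss, which closes the ring of lanosterol, were 0.16 on 1420013_s_at, -0.19 on 1420014_at and 0.29 on 1426913_at, with SEs of 0.25, 0.12 and 0.17.

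The regulators gave small differences in that comparison. Srebf2 differed by 0.06 (SE 0.18, interval -0.32 to 0.44) on 1426744_at and by 0.08 (SE 0.11) on 1452174_at, the latter with its TAA arrays just above the BSS arrays. Insig1 differed by 0.14 (SE 0.19, interval -0.25 to 0.54).

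Counted together, 17 of the 18 probe sets were higher after TAA than after BSS at day 7, with a median difference of 0.15, while 47.6% of all probe sets were higher and their median was -0.0078. The exception was Lss 1420014_at. Groups were apart and higher after TAA for 3 of 18, those named above for Msmo1, Fdps and Srebf2, against 4.55% of all probe sets. Probe sets of 1 gene share a transcript and genes of 1 pathway may move together on an array, so that these are not 18 separate observations. The members were also chosen with earlier results of these data known. The study had already listed Msmo1 (as Sc4mol) and Fdps as higher in this comparison on the same arrays. The counts are therefore a description and no independent evidence of an effect. The median fell to 0.074 without BSS day 7 replicate 2, an array on which 3 of the 18 were above 0. After Dex at day 7, 12 of the 18 were higher and 6 lower (49.8% of all probe sets were higher), with a median of 0.033, a range from -0.35 (Idi1 1423804_a_at) to 0.38 (Fdps 1423418_at) and 0 members at the study's thresholds, which 0.104% of all probe sets reached. Both comparisons share the 3 BSS arrays.

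At day 30 the difference between TAA and BSS was 0.12 for Msmo1 1423078_a_at, as above, and 0.17 (SE 0.37) for Fdps 1423418_at, whose change in the TAA effect between the days was -0.42 (SE 0.53). After TAA, 15 of 18 probe sets were higher, with a median of 0.15 and a range from -0.12 (Hmgcs1 1441536_at) to 0.30 (Hmgcs1 1433444_at), and 50.9% of all probe sets were higher. Without TAA day 30 replicate 2 that median was 0.021, and without BSS day 30 replicate 2 it was 0.041. After Dex, 6 of 18 were higher and 12 lower (51.5% of all probe sets were higher), with a median of -0.050 and a range from -0.19 (Idi1 1423804_a_at) to 0.15 (Srebf2 1426744_at). Without Dex day 30 replicate 3 the median was 0.069. Neither steroid had a member at the study's thresholds at day 30, where 0.175% of all probe sets passed after TAA and 0.477% after Dex. One member was apart from BSS, Msmo1 1459627_at, lower after TAA by 0.083 (3.11% of all probe sets were apart and lower).

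**Figure D2:**
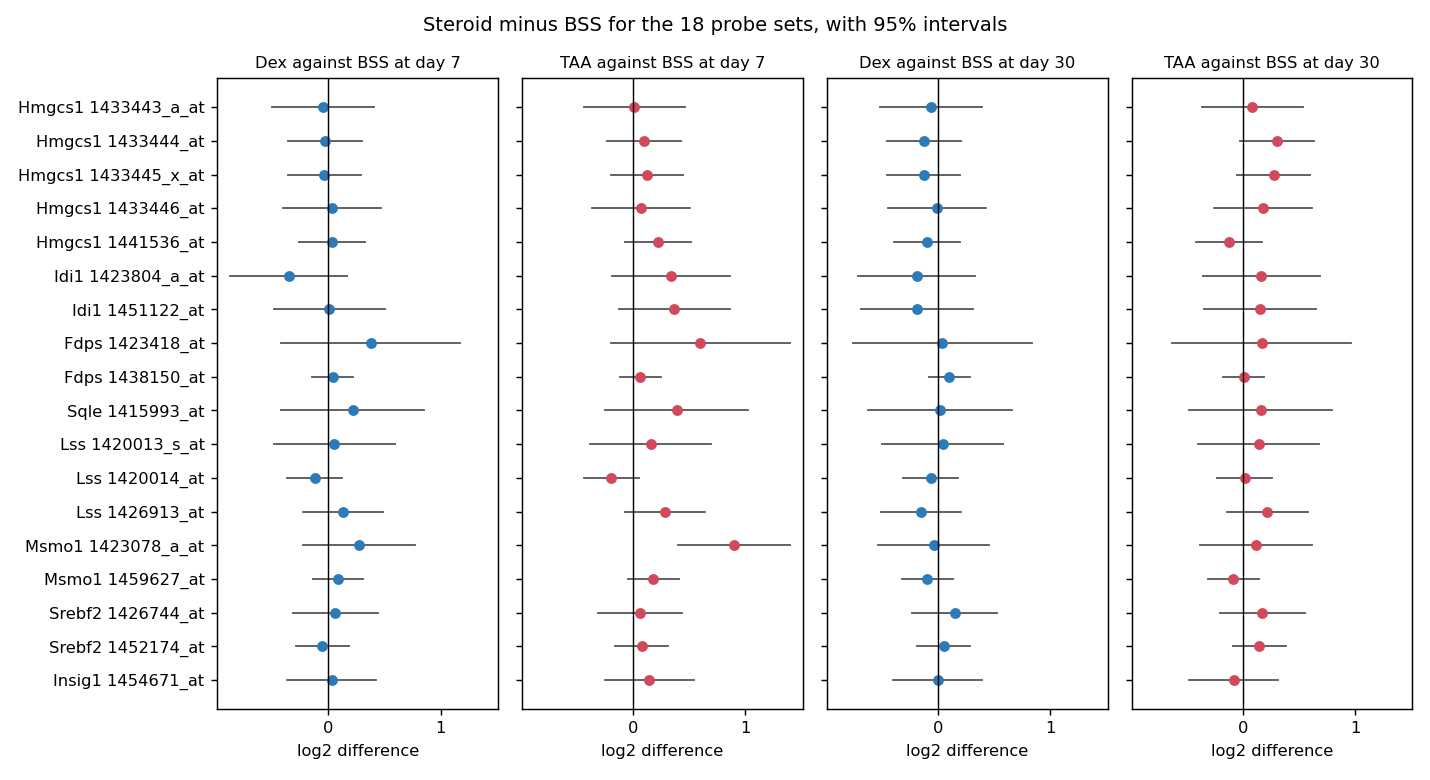
Difference in log2 expression between a steroid and BSS at each day for the 18 probe sets, as points with 95% intervals from limma. The interval of Msmo1 1423078_a_at after TAA at day 7 (0.40 to 1.40) is the one that lies wholly above 0, and those of the other probe sets include 0 in all 4 comparisons.

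The steroids were set side by side at each time, at 25 μg of TAA and 10 μg of Dex. At day 7, 16 of 18 probe sets were higher after TAA (49% of all probe sets were), with a median of 0.13, and 2 stood at the study's thresholds in that direction, where 0.071% of all probe sets did. They were Msmo1 1423078_a_at, given above, and Idi1 1423804_a_at. The Idi1 values were 0.69, 0.04 and 0.39 after TAA, 0.03, -0.41 and -0.57 after Dex and 0.26, -0.45 and 0.30 after BSS. TAA and Dex were apart by a narrow margin, and the BSS arrays overlapped both. The difference was 0.69 (SE 0.24, interval 0.17 to 1.21, adjusted p = 1), and on the other Idi1 probe set, 1451122_at, it was 0.36 (SE 0.23, interval -0.14 to 0.85). Without TAA day 7 replicate 1 the differences were 0.51 for Msmo1 and 0.53 for Idi1, and neither was at the study's thresholds. Nor was Idi1 without Dex day 7 replicate 3 (0.57), or Msmo1 without Dex day 7 replicate 1 (0.57). With the methods' t-test Idi1 was not at them, while Msmo1 was (adjusted p = 0.892). Hmgcs1 1433444_at was the third member with groups apart (difference 0.13, SE 0.15), against 5.7% of all probe sets. For the other 15 probe sets the differences at day 7 lay between -0.071 and 0.36.

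At day 30, 15 of 18 probe sets were higher after TAA than after Dex (50.1% of all probe sets were), with a median of 0.14, and 0 were at the study's thresholds, which 0.115% of all probe sets reached. Hmgcs1, the HMG-CoA synthase, and Lss gave the 3 probe sets that passed 0.05 before adjustment and were higher, as 0.623% of all probe sets did. On Hmgcs1 1433444_at the values were 0.26, 0.04 and 0.38 after TAA and -0.04, -0.01 and -0.56 after Dex, with 1 Dex array far below the others. The difference was 0.43 (SE 0.15, interval 0.10 to 0.76). On Hmgcs1 1433445_x_at it was 0.40 (SE 0.15) and on Lss 1426913_at 0.37 (SE 0.17). The groups were apart on all 3, against 2.06% of all probe sets. Without Dex day 30 replicate 3 the differences were 0.25, 0.22 and 0.16 and the median of the 18 was -0.0022. The other 3 probe sets of Hmgcs1 gave 0.15, 0.19 and -0.031, and the adjusted p of every member in this comparison was 1.

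Insig1, the sterol-sensing brake on the pathway, had the largest difference between the days among the members over the 3 treatments. Its values at day 7 were 0.32, -0.15 and 0.34 after BSS, -0.01, 0.12 and 0.49 after Dex and 0.19, 0.24 and 0.51 after TAA. At day 30 they were -0.33, -0.03 and -0.03 after BSS, 0.14, 0.01 and -0.56 after Dex and -0.19, -0.09 and -0.36 after TAA. The days were apart within TAA and overlapped within BSS and Dex. Of all probe sets, 7.22% were apart and lower at day 30 within TAA, as were 2 members, Insig1 and Msmo1 1423078_a_at. Over the 3 treatments day 30 lay below day 7 with a difference of -0.39 (SE 0.11, interval -0.62 to -0.16, adjusted p = 0.132), and within BSS, Dex and TAA the differences were -0.30, -0.34 and -0.52 (SE 0.19 each). Within BSS that of Fdps 1423418_at was larger in size (0.34, SE 0.37), and within TAA that of Msmo1 1423078_a_at (-0.70, as above). With weights for the quality of each array the difference was -0.46 and passed (adjusted p = 0.0229). The share of all probe sets that passed with weights was not counted. Without Dex day 30 replicate 3 the difference was -0.32.

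Of the other members, Msmo1 1423078_a_at differed between the days by -0.28 (SE 0.13), and the rest lay between -0.15 and 0.11. In all 8 of 18 probe sets were higher at day 30, with a median of -0.023, where 43.1% of all probe sets were higher. Other signals of the tissue moved with the day. The 10 rod markers and the 8 lens crystallins were all higher at day 30 (medians 1.63 and 0.93). The 7 adipocyte markers, the 8 fibroblast markers and the 12 RPE markers were all lower (medians -0.39, -0.39 and -0.078), as were 8 of 10 macrophage markers (median -0.19). Of the 12 genes of the glucocorticoid response 10 were lower and 2 higher. Among the lower were Tsc22d3 (1420772_a_at, -0.99, SE 0.14, adjusted p = 0.00736) and Per1 (-0.65, SE 0.10, adjusted p = 0.0129). The other 3 probe sets of Tsc22d3 lay between -0.63 and -0.0065 and were not called. The treatments differed in these markers. The rod median was 3.57 within BSS and 1.43 within TAA with all 10 genes higher, but -0.25 within Dex with 4 higher and 6 lower. The adipocyte median was -0.57 within BSS, -0.33 within Dex and -0.065 within TAA, and the fibroblast median -0.56, -0.52 and -0.18. Their part in the Insig1 difference was not tested.

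The other genes of sterol metabolism were read from lists. Counts and medians use the mean of a gene's probe sets, and a value given with a probe set name belongs to that probe set alone. Of the other enzymes of cholesterol synthesis, 13 of 16 were matched, and the others were not analysed here. After TAA at day 7, 12 of these 13 were higher than after BSS, with a median of 0.18 (0.24 over the 8 genes described above, and -0.00037 over all genes). Fdft1, which makes squalene, was the 1 at the study's thresholds, on 1448130_at, with a difference of 0.59 (SE 0.14, adjusted p = 0.996) and its groups apart. Its other 3 probe sets lay between -0.19 and 0.21, and the mean of the 4 differed by 0.18 (SE 0.090). The study had listed Fdft1 1448130_at as higher in this comparison too, and the list was chosen with earlier results known. After Dex at day 7, 11 of 13 were higher with a median of 0.050, and at day 30 the counts were 9 of 13 after TAA (0.075) and 6 of 13 after Dex (-0.00045). None was called in any of the 7 comparisons.

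Among 10 genes of cholesterol uptake and transport, 8 were higher after TAA at day 7, with a median of 0.084. By gene mean the largest differences were those of Mylip, a ligase that marks lipoprotein receptors for degradation (1 probe set, 0.24, SE 0.14), and Vldlr, a receptor for lipoproteins (0.14, SE 0.16, its 6 probe sets from -0.066 to 0.38). Scarb1, the receptor for HDL, had 0.097 (SE 0.14) over 3 probe sets from -0.022 to 0.27. Of 9 other regulators of SREBP processing 4 were higher (median -0.012), the largest differences being those of Insig2, the relative of Insig1 (-0.20, SE 0.15), and Scap, the escort of SREBP (0.19, SE 0.12). Of 7 genes of cholesterol efflux 5 were higher (median 0.15). Abcg4, a sterol exporter, differed between day 30 and day 7 by 0.77 on 1424437_s_at (SE 0.29, adjusted p = 0.271) and by -0.076 on 1427732_s_at (SE 0.058). Of 13 genes of fatty acid synthesis 7 were higher after TAA at day 7 (median 0.0046), and 1 probe set of Scd2, a fatty acid desaturase, fell from day 7 to day 30 by 0.44 (1415824_at, SE 0.084, adjusted p = 0.0356). Its other probe sets, not called, gave -0.30 and -0.036, and the mean of the 3 differed by -0.26 (SE 0.061).

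Genes of the glucocorticoid response and markers of cell types also moved in the comparison of TAA with BSS at day 7. All 12 genes of the glucocorticoid response were higher (median 0.25), and 1 probe set each of Per1 (0.69, SE 0.18), Fkbp5 (0.92 on 1416125_at, SE 0.36) and Tsc22d3 (0.62 on 1420772_a_at, SE 0.25) was at the study's thresholds. By gene mean Fkbp5 differed by 0.38 (SE 0.17) over 3 probe sets and Tsc22d3 by 0.28 (SE 0.13) over 4. The 10 rod markers were all higher (median 1.12), and their mean ran from -1.65 to 2.22 on the TAA arrays and from -1.42 to -0.68 on the BSS arrays. All 8 lens crystallins were lower (median -1.41, arrays from -1.90 to -0.49 after TAA and from -0.027 to 0.41 after BSS), as were all 12 skeletal muscle markers (median -0.53, from -0.64 to -0.14 and from -0.18 to 0.23) and all 7 adipocyte markers (median -0.68, from -0.28 to 0.027 and from -0.027 to 1.23). Of 12 RPE markers 11 were higher (median 0.10, from 0.085 to 0.23 and from -0.17 to 0.21), and of 6 Müller glia markers 5 (median 0.042). Of 8 fibroblast markers 5 were lower (median -0.22), and of 10 macrophage markers 6 (median -0.11). Lower at the study's thresholds were 4 of 8 lens, 6 of 19 muscle, 3 of 11 adipocyte and 1 of 15 fibroblast probe sets, against 0.326% of all probe sets. Higher at them were 3 of 28 glucocorticoid probe sets, those named above, against 0.126%. Of the 11 rod, 18 RPE, 17 Müller glia and 16 macrophage probe sets 0 were at them. Centred values do not show which of these markers are near background. After Dex at day 7 the rod median was 2.30, and the mean of the rod markers ran from -0.33 to 1.76 on the Dex arrays. Between TAA and Dex at day 7 all 10 rod, 8 lens, 12 muscle and 7 adipocyte genes were lower after TAA (medians -1.23, -1.415, -0.62 and -0.55). All 12 glucocorticoid genes and 10 of 12 RPE genes were higher (0.17 and 0.12). At the study's thresholds 3 of 8 lens and 7 of 19 muscle probe sets were lower, against 0.2% of all probe sets. Between TAA and Dex at day 30 all 12 muscle and 7 adipocyte genes were lower after TAA (medians -0.32 and -0.23), as were 9 of 10 macrophage genes (-0.52). All 10 rod genes were higher (0.76). At the study's thresholds 5 of 16 macrophage probe sets were lower, against 0.102% of all probe sets. The part of any of these shifts in the Msmo1, Fdps, Idi1, Hmgcs1 and Lss differences was not tested.

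Across the 18 arrays the values of the members had positive correlations with each other, also with the group means removed. Averaged over the 8 genes, the array means were 0.25, 0.075 and 0.26 after TAA at day 7, -0.027, -0.22 and 0.070 after BSS and -0.14, -0.0038 and 0.15 after Dex. At day 30 they were 0.11, 0.18 and -0.17 after TAA, -0.086, -0.20 and 0.13 after BSS and -0.028, 0.18 and -0.39 after Dex. The TAA arrays at day 7 lay just above the BSS arrays of that day and overlapped the Dex arrays. The last Dex array at day 30 was the lowest of all and held the lowest value of 8 of the 18 probe sets. Of the sum of squares of this mean, 71.8% lay within groups. The share ran from 33.1% for Msmo1 and 49.8% for Insig1 through 59.6% for Idi1, 71.5% for Srebf2, 77.7% for Hmgcs1, 80.3% for Lss and 83.7% for Fdps to 87.4% for Sqle, and the median of all genes was 71.2%.

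The 28 pairs of genes had a median Pearson r of 0.51 over the 18 arrays, from 0.12 for Idi1 with Fdps to 0.85 for Hmgcs1 with Lss. With the group means removed the median was 0.59, 17 of 28 pairs were above 0.5, and the highest was Insig1 with Srebf2 (0.88), a pair with an r of 0.27 before the group means were removed. Within the arrays of day 7 and of day 30 the median of these residual correlations was 0.49 and 0.72. Without Dex day 30 replicate 3 it was 0.47, the lowest value when 1 array was left out. Sqle followed the mean of the other 7 genes most closely (r = 0.86), then Hmgcs1 (0.80), Lss (0.77), Idi1 (0.66), Srebf2 (0.60), Msmo1 (0.57), Fdps (0.53) and Insig1 (0.51). These points share the RNA, the normalization and the centring of each array, and the correlations are given as a description over 18 arrays. The share of pairs above 0.5 among all genes was not counted. Whether 17 of 28 exceeds that share is therefore not known.

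**Figure D3:**
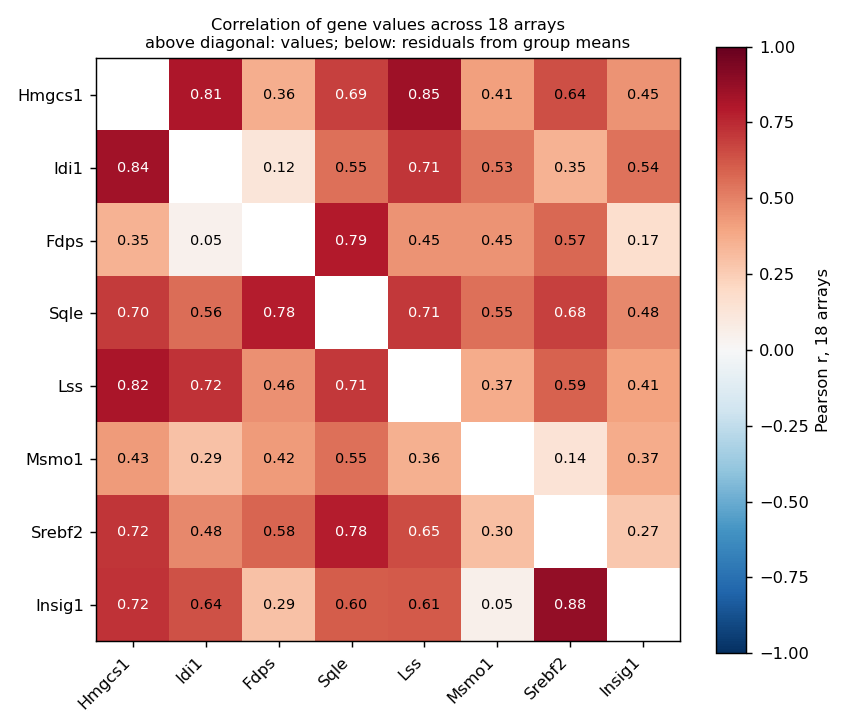
Pearson r between the gene values (mean of the probe sets of a gene) of each pair of the 8 genes over the 18 arrays, above the diagonal for the values and below it for residuals from the group means. All 28 pairs are above 0 on both sides, and the highest are Hmgcs1 with Lss (0.85) for the values and Insig1 with Srebf2 (0.88, against 0.27 for the values) for the residuals.

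Probe sets of 1 gene did not always follow each other. On Hmgcs1, 1433444_at and 1433445_x_at had an r of 0.97 with each other, while 1441536_at had between -0.059 and 0.23 with the other 4. The pair of Idi1 had 0.74, that of Fdps 0.59, that of Srebf2 0.24 and that of Msmo1 0.20, and those of Lss lay between -0.30 and 0.35. The probe sets with the weakest relation to the other genes, Lss 1420014_at (r = -0.12) and Msmo1 1459627_at (0.050), were also among those with the smallest spread over the arrays (SD 0.14 and 0.12). Probe sets whose names end in _s_at or _x_at, such as Lss 1420013_s_at, can by their design hold probes that match other transcripts.

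The list of 13 other synthesis enzymes, which shares no gene with the members, followed their mean with r = 0.91 (Spearman's rho 0.91, and 0.90 without the 2 arrays farthest from the median) and with r = 0.93 for residuals. When 1 array was left out, r lay between 0.90 and 0.95. Of the 13 enzymes, 7 had an r above 0.5 with the 8-gene mean (median 0.52, from -0.021 for Lbr to 0.88 for Nsdhl), where 3.11% of 18186 other genes did (median -0.017). The mean of the 10 uptake and transport genes had an r of -0.34 with it, that of the fatty acid genes 0.023, that of the SREBP regulators -0.065, that of the efflux genes 0.52 and that of the glucocorticoid genes 0.26. Without the 2 arrays farthest from the median these were 0.18, -0.12, -0.36, 0.53 and 0.40, and for residuals -0.60, -0.30, -0.24, 0.52 and -0.21, so that the sign changed for the uptake, fatty acid and glucocorticoid genes. For markers of other cells r was 0.050 for rods, -0.050 for the RPE, 0.33 for Müller glia, -0.065 for lens, -0.22 for macrophages, -0.30 for fibroblasts, -0.43 for skeletal muscle and -0.46 for adipocytes. For residuals it was 0.13 for rods, -0.41 for the RPE, 0.41 for lens, -0.48 for fibroblasts and -0.43 for adipocytes, and without the 2 arrays it was 0.25 for rods, 0.079 for the RPE, -0.18 for lens, -0.25 for fibroblasts and -0.46 for adipocytes. The median of an array had an r of -0.20 with the 8-gene mean and its SD -0.087.

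**Figure D4:**
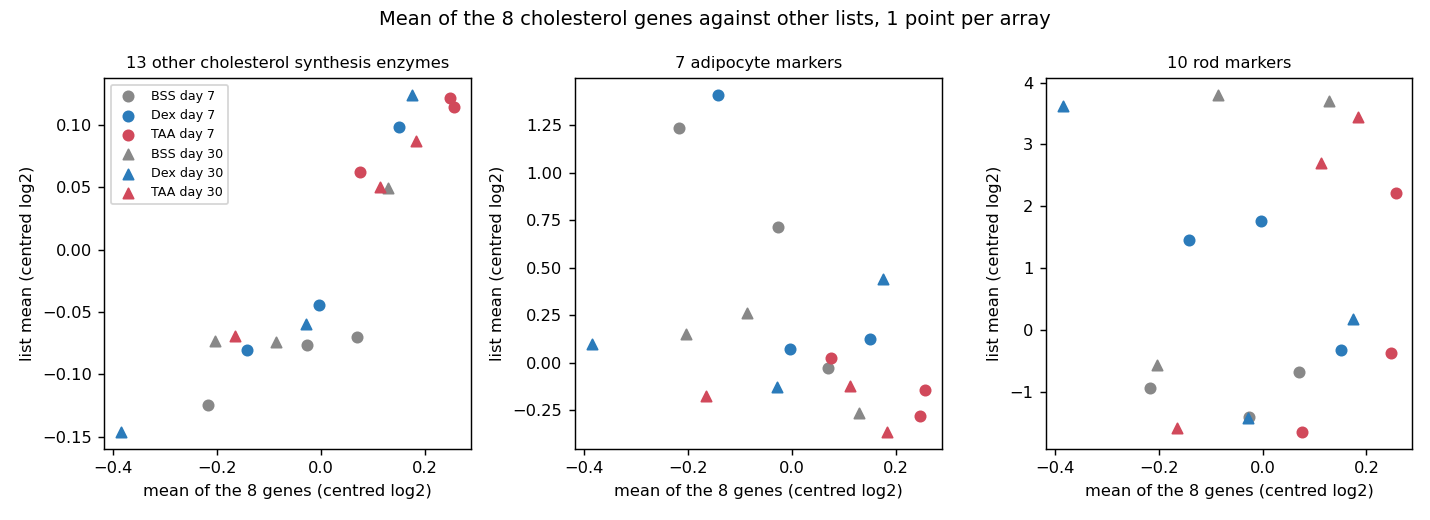
Mean centred log2 value of the 13 other synthesis enzymes, 7 adipocyte markers and 10 rod markers (vertical axes) against the mean of the 8 genes (horizontal axis), with 1 point per array, coloured by treatment and shaped by day. The enzyme points fall along a line (r = 0.91), the adipocyte points slope down (r = -0.46) and the rod points show no slope (r = 0.050).

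Among 9866 genes outside the members whose SD over the arrays was at least that of the least variable member, the 6 most like the 8-gene mean were Nsdhl (r = 0.88), Nebl (0.84), Cyp51 (0.82), Cyb561 (0.81), Gja1 (0.80) and Wnt5b (0.79), each over 18 arrays. Nsdhl and Cyp51 encode enzymes that act on the sterols after lanosterol and were in the list of enzymes above. Nebl encodes an actin-binding protein, Cyb561 a cytochrome of vesicle membranes, Gja1 the gap junction protein connexin 43 and Wnt5b a secreted Wnt ligand. Without the 2 arrays farthest from the median, their r lay between 0.66 (Cyp51) and 0.81 (Nsdhl).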

How the data were processed

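The RNA of 18 RPE/choroid samples was measured on Affymetrix mouse arrays in 6 groups of 3, taken from the sample labels. According to the methods the authors summarised the scans with RMA in GeneSpring, with all samples' median as baseline, and the deposited numbers are log2 values centred per probe set (largest median 5e-07 in size). Which probe set definition was used is not stated, and the labelling kit named in the labels differs from that in the methods. A filter on weak signals needs levels and could not be repeated.

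The platform annotation gave 1 symbol for 34958 probe sets, several for 932 and none for 9211. All 45101 probe sets were fitted in limma 3.58.1 (R 4.3.3) with 1 mean per group and no replicate block, on 12 residual degrees of freedom, to which the prior added 3.29. Two-sided p-values were adjusted across all probe sets (Benjamini-Hochberg), with a call at an adjusted p under 0.05. The members, lists and named genes were chosen with earlier results of these data known. Named from a list were the genes past a threshold, at most 4 per comparison, or else the 2 with the largest difference for TAA against BSS at day 7. The 15 lists cover the members, 6 groups of pathway genes and markers of other cells, and each list's genes were averaged per array. The fit was run on simulated data with independent noise for each probe set. That run checks the computation and does not measure power or error rates on these arrays. Alternatives were array weights, a robust prior, centring of each array, a replicate block, the compared arrays alone, the mean of a gene's probe sets, the methods' t-test and leaving out each array. Motifs and correlations were computed in Python 3.11.15 with pandas 2.3.3. Some genes are not reported here.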

Additional observations from a re-analysis of the deposited data

How the results depend on the processing

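At an adjusted p under 0.05, 0 member probe sets were called in any of the 7 comparisons, and this held under the alternatives run, the methods' t-test included, except with array weights, where 1, Insig1, was called between the days. The share of all probe sets called with weights was not counted, and without weights it was 0.399% for the days. At the study's thresholds the count for TAA against BSS at day 7 was 1, and it was 2 with array weights, with only the arrays compared and with the methods' t-test, the member added being Fdps 1423418_at each time, and 0 with the mean of the probe sets of a gene. For TAA against Dex at day 7 the count was 2, and it was 1 (Msmo1) with the methods' t-test and 0 with gene means.

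Leaving out each array in turn gave 1 to 2 for TAA against BSS and 0 to 2 for TAA against Dex at day 7, 0 to 1 for Dex against BSS at day 7 and for TAA against Dex at day 30, and 0 for the rest. The added members were Fdps 1423418_at for TAA at day 7 (without Dex day 30 replicate 2) and Idi1 1423804_a_at for Dex against BSS at day 7 (-0.60, without BSS day 7 replicate 2) and for TAA against Dex at day 30 (0.62, without Dex day 30 replicate 1). The median of the 18 probe sets then ran from 0.074 to 0.23 for TAA and from -0.089 to 0.12 for Dex at day 7, from 0.021 to 0.23 and from -0.16 to 0.069 at day 30, from 0.034 to 0.17 and from -0.0022 to 0.33 for TAA against Dex at day 7 and day 30, and from -0.068 to 0.023 for the days. Of 2880 single values over 23 alternatives, 144 changed sign, 1 of them where the difference had been over 0.2 in size (Fdps 1423418_at, TAA against Dex at day 7, -0.028 without Dex day 7 replicate 1).

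Samples with the same replicate number did not deviate together (median correlations -0.047, -0.11 and -0.040 for the 3 numbers, 13 of 45 pairs above 0.1, and 3 of 18 arrays most like their own number), so the numbers were not taken to pair the samples. With the replicate block the count at the study's thresholds was 1 for TAA against BSS and 2 for TAA against Dex at day 7, with 0 calls. The number of arrays limits the precision, depth is not defined for arrays, and the smallest differences given lie well inside their SEs.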
